A study of Mus musculus with 8 samples.

Results

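Interferon-stimulated genes are the genes that cells switch on when interferon binds its receptor, and 46 of them were followed here through RNA sequencing of mouse cardiac fibroblasts. The 46 were taken as a named list of sensors of viral nucleic acid, antiviral effectors and the machinery around them. All 46 were found among the 22274 genes of the deposited count table. The cells were primary murine cardiac fibroblasts, the matrix-producing cells of the heart, and all received TGF-β at 5 ng/ml for 24 h, the cytokine that turns fibroblasts into myofibroblasts. There were 4 libraries labelled GFP, which by the study's text received an empty vector, and 4 labelled OEIRF7, made after viral delivery of the transcription factor IRF7. No group without TGF-β and no group without virus was analysed here, and neither the strain nor the age of the mice is stated in the labels. The adenoviral vectors of the reagent list carry the CMV promoter, active in most cell types, and EGFP in both groups. Libraries are named by label and replicate, so that GFP 2 is replicate 2 of the libraries labelled GFP. The labels do not say whether the 4 libraries of a group came from separate cultures or animals, so p-values measure the spread between libraries, which may be technical.

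Type I interferon is made when sensors such as RIG-I and MDA5 meet viral RNA. The signal runs through an adaptor and the kinases TBK1 and IKKε to the factors IRF3 and IRF7, which turn on the interferon genes. Secreted interferon then acts through its receptor, JAK kinases and a complex that holds STAT2 and IRF9, which binds the interferon-stimulated response element (ISRE) in promoters. IRF7 is itself induced by interferon and recognises closely related DNA, so many of the genes below can be reached by both routes. Fibroblasts of most tissues carry this whole pathway.

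The targeted gene was examined first. Mouse Irf7 stood at 107, 147, 92.0 and 126 CPM (counts scaled to a common library size with TMM factors) in GFP libraries 1 to 4 and at 14.9, 14.5, 14.9 and 16.4 CPM in OEIRF7 libraries 1 to 4. It was thus lower under the OEIRF7 label, with a log2 fold change of -2.96 (standard error, SE, 0.12, edgeR adjusted p = 7.7e-11). The adenovirus in the study's reagent list carries human IRF7, which counts of mouse genes need not show, while the design text of the series speaks of an adeno-associated virus, and the IRF7 vector of that type in the reagent list carries mouse Irf7. If the latter was used, a lower Irf7 contradicts the label. For this RNA sequencing the study's text and figure legend name adenovirus, so the design text of the series differs from them. The files do not settle that difference, and every direction below is between the libraries labelled OEIRF7 and those labelled GFP.

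Total counts lay between 24454801 and 28658826 per library. The 12 fibroblast markers summed to 28700 to 30200 CPM in the GFP libraries and 26000 to 28000 CPM in the OEIRF7 libraries. Of these, 2 were higher and 7 lower under the OEIRF7 label (16.7% and 58.3%, beside 29.0% and 29.9% of all tested genes, edgeR). Their log2 fold changes ran from -1.33, for Tcf21, to 0.25. Of 10 cardiomyocyte markers 9 were under 1 CPM. Of 10 lymphocyte and dendritic cell markers, 5 (Cd3e, Cd3g, Cd8a, Nkg7 and Flt3) had no count in any library. The 14 macrophage and monocyte markers were all present and summed to 351 to 411 CPM in the GFP libraries and 442 to 493 CPM in the OEIRF7 libraries. Much of each sum was Lyz2, with 179 to 217 CPM in the GFP libraries and 222 to 249 CPM in the OEIRF7 libraries. Of these 14, 8 were higher under the OEIRF7 label and 0 lower (edgeR, 9 at an unadjusted p under 0.05), or 57.1% higher beside 29.0% of all tested genes. The log2 fold changes ran from 1.21 for Cd14, 1.07 for Itgam and 1.05 for Mrc1 to values that did not pass, such as 0.06 for Csf1r, -0.08 for Ptprc, -0.13 for C1qc and -0.32 for C1qb. Macrophages express many of the genes below, and the part of macrophages or of endothelial cells in the results was not tested. In bulk RNA, more cells of a type and more RNA per cell cannot be told apart.

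The interferon-stimulated genes did not move as a block. Of the 46, 44 had enough counts to be tested, and Mx1 and Epsti1, with at most 13 and 16 counts in a library, did not. Under the OEIRF7 label 18 of the 44 (40.9%) were higher and 9 (20.5%) lower at an adjusted p under 0.05 (edgeR's quasi-likelihood test with Benjamini-Hochberg adjustment over all 13533 tested genes). The comparison touched most of the transcriptome, since 29.0% of all tested genes were higher and 29.9% lower by the same rule. Past a 2-fold change, 4 members (9.09%) were higher, Oasl1, Zbp1, Rsad2 and Oas3, beside 4.66% of all tested genes. Only Ifitm1 (2.27%) was lower past 2-fold, beside 3.89% of all tested genes.

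The median log2 fold change of the 44 was 0.13, beside 0.0015 for all tested genes, and the median of its absolute size was 0.28, beside 0.25. Of the 44, 28 (63.6%) had a positive log2 fold change, as had 50.2% of all tested genes. Every OEIRF7 library lay above every GFP library for 15 members (34.1%, beside 26.8% of all tested genes) and below for 5 (11.4%, beside 27.0%). For the other 24 the groups overlapped. The median rests in part on one library, because without GFP 2 it was 0.24, with 23 members higher and 5 lower.

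**Figure D1:**
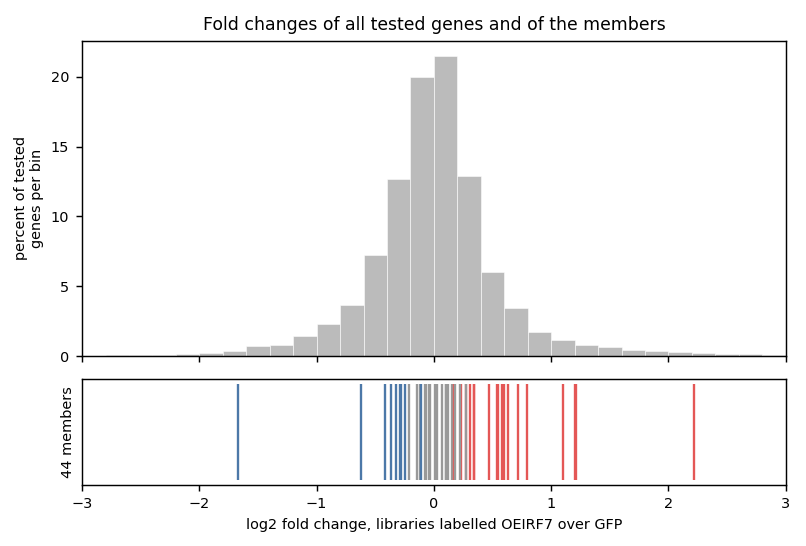
Upper panel, the percent of the 13533 tested genes in each bin of log2 fold change (OEIRF7 over GFP, bins of 0.2). Lower panel, 1 line for each of the 44 tested members on the same axis, red where higher and blue where lower at an adjusted p under 0.05 and grey otherwise. Most members sit in the body of the distribution, with Oasl1 at 2.22 and Ifitm1 at -1.67 at its edges.

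By level per gene length, the list spanned from 0.0912 FPKM (fragments scaled to gene length and depth) for Mx1 to 520 FPKM for Ifitm3, as means over the 8 libraries. Mean FPKM was above 100 for 7 members, 10 to 100 for 25, 1 to 10 for 11 and under 1 for 3. The 3 most abundant were Ifitm3, Lgals3bp (313 FPKM) and Ifit3 (211 FPKM). The members past 2-fold were not among the most abundant, with mean FPKM of 24 for Zbp1, 6.28 for Oasl1, 3.91 for Rsad2, 1.36 for Oas3 and 0.454 for Ifitm1.

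Because the ISRE joins these genes in textbook accounts, it was looked up as letters in RefSeq promoters (GRCm38.p6, 250 bases before to 50 after the start). Entries were found for 35 of the 46 members, those without being Dhx58, Ifi27, Iigp1, Mx1, Mx2, Oas2, Parp14, Parp9, Rtp4, Usp18 and Zbp1. The core GAAANNGAAA was searched on both strands. It occurred for 20 of the 35 members (57.1%), beside 3.99% of all 27025 genes with a promoter entry (3.44% of 32851 promoters). Spaced by 3 bases, as GAAANNNGAAA, it occurred for 7 members, beside 3.17% of all such genes. The core of the STAT site of interferon-γ, TTCNNNGAA, occurred for 9 members (25.7%), beside 9.55% of all such genes, and each word was counted on its own, so matches of different words may overlap.

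The ISRE core was found in members of both directions, and a difference from members without it was not tested. Of the 20 members with it, 6 were higher, 6 lower and 8 not past the threshold, with a median log2 fold change of 0.06. Of the 15 without it, 14 were tested, of which 7 were higher, 2 lower and 5 not past the threshold, with a median of 0.14. By the same threshold 29.0% of all tested genes were higher and 29.9% lower. Windows with the core in capitals (read as its reverse complement where the match is on the other strand) and 20 bases to each side are shown for 3 members that were higher, 2 that were lower and 2 that did not pass. They are given 5′ to 3′ on the gene's strand. The calls of Ifit1, Ifit3 and Bst2 among them were lost under some other settings, as given below. Irgm1, Gbp2 and Eif2ak2 also hold the core and are not shown, though they were lower with groups apart and kept that call in every setting.
Rsad2, higher, chr12:26456543-26456592, minus strand: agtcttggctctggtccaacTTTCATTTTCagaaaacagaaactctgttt
Oas3, higher, chr5:120777705-120777754, minus strand: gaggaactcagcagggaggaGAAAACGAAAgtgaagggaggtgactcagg
Bst2, higher, chr8:71537567-71537622, minus strand: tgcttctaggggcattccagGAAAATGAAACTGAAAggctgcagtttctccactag
Ifit1, lower, chr19:34640765-34640833, plus strand: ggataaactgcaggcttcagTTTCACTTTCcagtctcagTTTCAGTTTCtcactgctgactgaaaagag
Ifit3, lower, chr19:34583353-34583436, plus strand: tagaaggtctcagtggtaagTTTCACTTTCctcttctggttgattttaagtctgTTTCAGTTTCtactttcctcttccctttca
Ifit3b, not past the threshold, chr19:34607749-34607832, plus strand: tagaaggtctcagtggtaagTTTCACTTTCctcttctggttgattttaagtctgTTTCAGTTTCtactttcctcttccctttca
Isg15, not past the threshold, chr4:156200855-156200916, minus strand: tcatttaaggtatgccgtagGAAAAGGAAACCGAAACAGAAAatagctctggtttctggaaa
The windows of Ifit3 and Ifit3b hold the same 84 letters, and each has 2 matches. Isg15 has 3 matches that overlap, and Rsad2 and Oas3, which both rose past 2-fold, have 1 each.

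**Figure D2:**
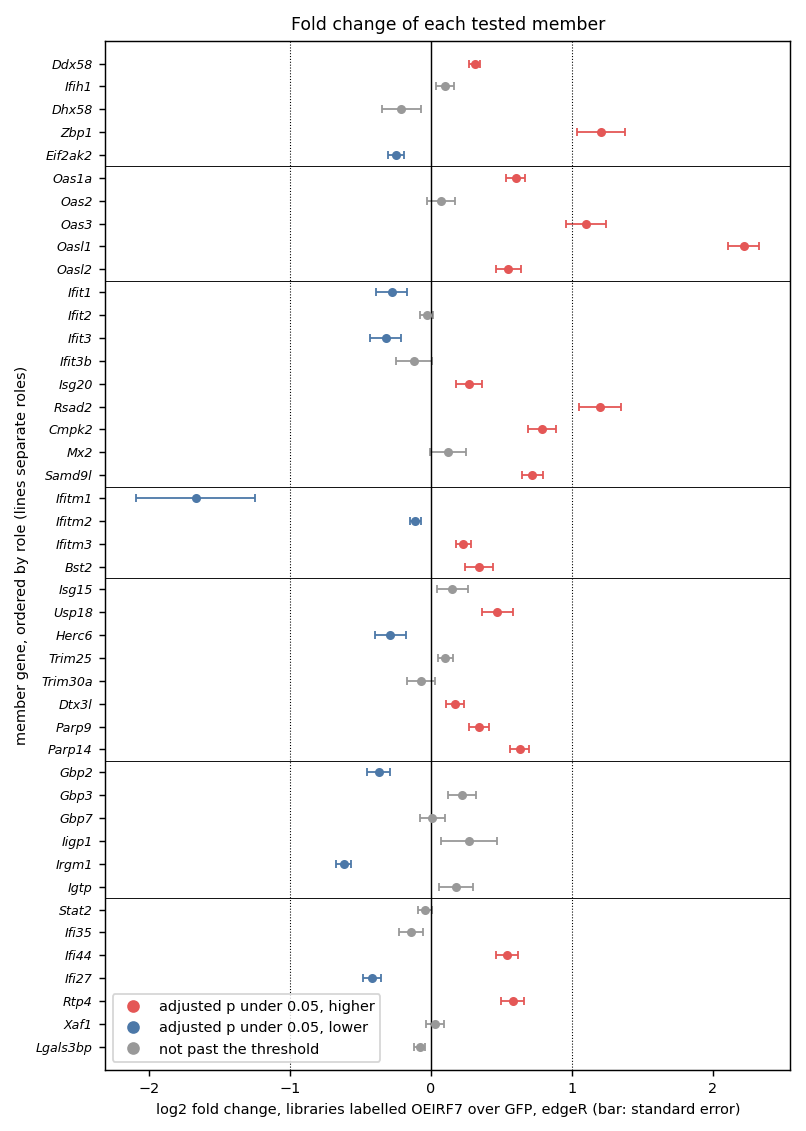
Log2 fold change of each of the 44 tested members (horizontal axis, OEIRF7 over GFP) with its standard error, grouped by role. Red points are higher and blue points lower at an adjusted p under 0.05, grey points did not pass, and dotted lines mark a 2-fold change. In the OAS family 4 of 5 members are red (80.0%, beside 29.0% of all tested genes), and among the 6 interferon-inducible GTPases of the list none is (0.0%).

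The oligoadenylate synthetase (OAS) family, whose enzymes answer double-stranded RNA with a messenger that activates the nuclease RNase L, held the largest rise of the list, that of Oasl1. Of its 5 members 4 were higher and 0 lower (4 at an unadjusted p under 0.05). These were 80.0% and 0.0%, beside 29.0% and 29.9% of all tested genes. Oasl1, a family member without that enzyme activity that is known for blocking translation of Irf7 mRNA, was at 4.93, 4.57, 4.54 and 5.23 CPM in GFP libraries 1 to 4 and at 19.5, 23.8, 26.9 and 19.6 CPM in OEIRF7 libraries 1 to 4. The groups lay far apart and neither held a straying library. The means ± SD of 4 libraries each were 4.81 ± 0.326 and 22.4 ± 3.55 CPM, and the log2 fold change was 2.22 (SE 0.11, edgeR adjusted p = 5.4e-10; p = 0.029 in an exact two-sided permutation test, the lowest value possible with 4 libraries a group). Oasl1 lies on chromosome 5 of GRCm38 from 114923240 to 114937915 on the plus strand, and the predicted gene Gm13822 overlaps it on the other strand. The study's methods name a stranded library kit and the labels another kit, and the strand setting of the counting is not given in the sources used here, so values of such overlapping pairs are uncertain.

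Oas3 was low in all libraries. It had 3.40, 4.49, 3.0 and 4.39 CPM in GFP libraries 1 to 4 and 6.75, 9.0, 8.56 and 8.31 CPM in OEIRF7 libraries 1 to 4. These groups also stayed apart, with a log2 fold change of 1.10 (SE 0.14, edgeR adjusted p = 8e-06). Oas1a rose by 0.60 and Oasl2 by 0.55 on the log2 scale, the former with means ± SD of 33.1 ± 3.35 and 50 ± 3.33 CPM and the latter with 95.5 ± 14.1 and 140 ± 12.4 CPM (n = 4 each). Oas1a shares 40.9% of its 100-base words with Oas1g, so its value is uncertain between these paralogs. Oas2, which lies next to Oas3, did not pass (log2 fold change 0.07, SE 0.10, edgeR adjusted p = 0.58), with 17.9 to 27.8 CPM in the GFP libraries and 22.3 to 25.8 CPM in the OEIRF7 libraries.

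The 5 sensors of viral nucleic acid split. Zbp1, which binds nucleic acid in the Z form and can trigger necroptosis, had 14.6, 25.1, 12 and 14.7 CPM in GFP libraries 1 to 4 and 34.8, 45.9, 33.2 and 39.4 CPM in OEIRF7 libraries 1 to 4. Library 2 was the highest of both groups, and no GFP library reached the lowest OEIRF7 library. The log2 fold change was 1.21 (SE 0.17, edgeR adjusted p = 2.2e-05). Ddx58, the gene of RIG-I, rose by 0.31 on the log2 scale (mean ± SD of 4 libraries each, 209 ± 9.76 and 259 ± 10.7 CPM), also without overlap.

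Eif2ak2 went the other way. This gene encodes PKR, the kinase that halts translation when it binds double-stranded RNA, and it had 143, 155, 133 and 155 CPM in GFP libraries 1 to 4 and 117, 131, 132 and 114 CPM in OEIRF7 libraries 1 to 4. The groups did not overlap, though narrowly, and the log2 fold change was -0.25 (SE 0.058, edgeR adjusted p = 0.0019). Ifih1, the gene of MDA5 (log2 fold change 0.10, SE 0.063), and Dhx58, the gene of their regulator LGP2 (-0.21, SE 0.14), did not pass, and the gene Dhx58os overlaps the latter on the other strand.

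Among the 10 intracellular antiviral effectors, 9 were tested, of which 4 were higher and 2 lower. These were 44.4% and 22.2%, beside 29.0% and 29.9% of all tested genes. Rsad2 encodes viperin, an enzyme that makes a chain-ending nucleotide, and Cmpk2, its neighbour on chromosome 12, encodes a nucleotide kinase. Rsad2 had 8.14, 9.98, 6.64 and 11 CPM in GFP libraries 1 to 4 and 16.5, 20.4, 26.1 and 19.5 CPM in OEIRF7 libraries 1 to 4. Its groups did not overlap, and the log2 fold change was 1.20 (SE 0.15, edgeR adjusted p = 6.7e-06). Cmpk2 rose with it by 0.79 on the log2 scale (mean ± SD of 4 libraries each, 6.56 ± 0.506 and 11.4 ± 1.40 CPM). Samd9l, a restriction factor of poxviruses, rose by 0.72 on the log2 scale to 278 ± 26.9 CPM from 168 ± 17 CPM (± SD, n = 4 each). Isg20, an RNA-degrading exonuclease, rose by 0.27 on the log2 scale (mean ± SD of 4 libraries each, 10.3 ± 0.397 and 12.4 ± 1.65 CPM), a call that was lost without OEIRF7 library 2 (adjusted p = 0.056, edgeR) or 3 (0.07).

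The Ifit genes, neighbours on chromosome 19 whose proteins bind foreign RNA ends, did not join these rises. Ifit1 had 126, 175, 109 and 151 CPM in GFP libraries 1 to 4 and 105, 125, 123 and 108 CPM in OEIRF7 libraries 1 to 4. GFP 2 was the highest and the groups overlapped. The log2 fold change was -0.28 (SE 0.11, edgeR adjusted p = 0.04; p = 0.11 in an exact two-sided permutation test). Ifit3, the most abundant of them, had 366, 525, 332 and 416 CPM in GFP libraries 1 to 4 and 300, 381, 320 and 315 CPM in OEIRF7 libraries 1 to 4. Here too GFP 2 stood highest and the groups overlapped, at a log2 fold change of -0.32 (SE 0.11, edgeR adjusted p = 0.023).

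Both calls end without that library. Ifit1 then had a log2 fold change of -0.16 (adjusted p = 0.14, edgeR) and Ifit3 of -0.18 (adjusted p = 0.07, edgeR). Leaving out OEIRF7 library 1 or 4 ended both as well, and leaving out GFP library 4 ended that of Ifit1, with adjusted p from 0.059 to 0.11 (edgeR). DESeq2 gave adjusted p of 0.14 for Ifit1 and 0.11 for Ifit3, and limma on FPKM did not call either (adjusted p from 0.091 to 0.14). Without TMM scaling Ifit1 had an adjusted p of 0.059 (edgeR). Ifit2 (log2 fold change -0.03, SE 0.046) and Ifit3b (-0.12, SE 0.13) did not pass. Ifit3 and Ifit3b, whose promoter windows are identical, also share sequence in their transcripts (31.6% of the 100-base words of Ifit3), so reads may be split between them. Mx2, a dynamin-like antiviral GTPase, did not pass either (0.12, SE 0.13), and Mx1 stayed at 0.0811 to 0.448 CPM.

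**Figure D3:**
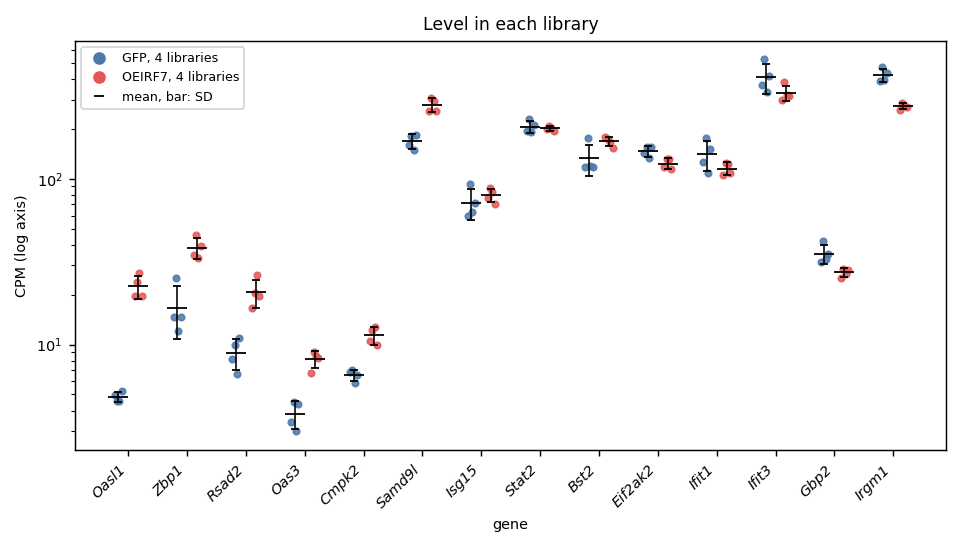
CPM on a log axis of 14 members in each of the 4 GFP libraries (blue) and 4 OEIRF7 libraries (red), with the mean and its SD. The groups of Oasl1, Zbp1, Rsad2, Oas3, Cmpk2 and Samd9l are apart with OEIRF7 above, those of Eif2ak2, Gbp2 and Irgm1 are apart with OEIRF7 below, and those of Isg15, Stat2, Bst2, Ifit1 and Ifit3 overlap.

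The 4 membrane restriction factors stop viruses at entry or release. All 4 passed the test, 2 of them higher and 2 lower. Among all tested genes 29.0% passed as higher and 29.9% as lower. For 3 of the 4 factors the groups overlapped. Ifitm3, the most abundant member of the list, had 310, 368, 307 and 315 CPM in GFP libraries 1 to 4 and 375, 375, 402 and 368 CPM in OEIRF7 libraries 1 to 4. The groups touch at 368 CPM, where GFP 2 meets OEIRF7 4, and the log2 fold change was 0.23 (SE 0.052, edgeR adjusted p = 0.0019). Bst2, which encodes the virus-tethering protein tetherin, rose by 0.34 on the log2 scale (mean ± SD of 4 libraries each, 132 ± 28.5 and 167 ± 11 CPM), a call that DESeq2 did not share (adjusted p = 0.069). Its GFP 2 library had 175 CPM, while the other 3 of that group had 117 to 120 CPM.

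Ifitm1 was nearly silent and lower. Its counts were 17, 11, 16 and 13 in GFP libraries 1 to 4 and 5, 7, 1 and 5 in OEIRF7 libraries 1 to 4. The groups stayed apart, and the log2 fold change of -1.67 (SE 0.42, edgeR adjusted p = 0.003) rests on those few counts. Ifitm2 had 132, 136, 131 and 119 CPM in GFP libraries 1 to 4 and 124, 120, 117 and 119 CPM in OEIRF7 libraries 1 to 4, with overlapping groups. Its log2 fold change of -0.11 (SE 0.042, edgeR adjusted p = 0.042) was lost without any one of 6 libraries, namely GFP 1, 2 or 3 or OEIRF7 2, 3 or 4, where the adjusted p was 0.071 to 0.11 (edgeR). The same held without TMM scaling (adjusted p = 0.13, edgeR), with a minimum of 10 counts in every library (0.05) and for limma on FPKM (0.16). Ifitm2 also shares 34.9% of its 100-base words with other annotated genes.

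In the ISG15 system, the ubiquitin ligases and the PARPs, 4 of 8 members were higher and 1 lower. Among all tested genes 29.0% were higher and 29.9% lower. Isg15 itself, the ubiquitin-like protein that is attached to other proteins in the interferon response, did not pass (log2 fold change 0.15, SE 0.11, edgeR adjusted p = 0.26). It had 60.0, 93.5, 62.6 and 71.3 CPM in GFP libraries 1 to 4 and 76.4, 87.4, 83.4 and 70.9 CPM in OEIRF7 libraries 1 to 4. GFP 2 was above every other library, and without it Isg15 was called higher, at 0.30 on the log2 scale (adjusted p = 0.0027, edgeR). Usp18, the protease that removes ISG15 and dampens the interferon receptor, rose by 0.47 on the log2 scale (mean ± SD of 4 libraries each, 62.4 ± 11.5 and 86.1 ± 9.54 CPM), and its libraries did not overlap.

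Parp14, Parp9 and Dtx3l, neighbours on chromosome 16 that act in ADP-ribosylation, all rose. The first had a log2 fold change of 0.63 (SE 0.066) and the second of 0.34 (SE 0.073), both without overlap. Dtx3l, the ligase that pairs with the PARP9 protein and whose gene overlaps Parp9 on the other strand, had 0.17 (SE 0.064, edgeR adjusted p = 0.031). This last call was lost without GFP library 1, 3 or 4 or OEIRF7 library 2 or 3 (adjusted p from 0.062 to 0.10, edgeR). Herc6, the ISG15 ligase of the mouse, was lower, with 24.2, 32.2, 24.7 and 27.3 CPM in GFP libraries 1 to 4 and 21.1, 26.8, 21.8 and 18.7 CPM in OEIRF7 libraries 1 to 4. The groups overlapped, and its log2 fold change of -0.29 (SE 0.11, edgeR adjusted p = 0.029) was lost without GFP 2 or 4 or OEIRF7 1 or 4 (adjusted p from 0.054 to 0.10, edgeR) and by limma on FPKM (adjusted p = 0.13). Trim25, the ligase that activates RIG-I (0.10, SE 0.053), and Trim30a, a brake on inflammatory signalling (-0.07, SE 0.10), did not pass, though Trim25 was called higher without TMM scaling (adjusted p = 0.049, edgeR) and by limma on FPKM (adjusted p = 0.036 and 0.037).

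The interferon-inducible GTPases, which disrupt the vacuoles of intracellular microbes, had 6 members tested. Of these, 2 were lower (33.3%, beside 29.9% of all tested genes) and 0 higher (0.0%, beside 29.0%). At an unadjusted p under 0.05 there were 3 in either direction (edgeR). Irgm1, a regulator of the family, was lower in every pairing of libraries, with 391, 470, 393 and 432 CPM in GFP libraries 1 to 4 and 261, 287, 275 and 272 CPM in OEIRF7 libraries 1 to 4. The means ± SD of 4 libraries each were 422 ± 37.8 and 274 ± 10.7 CPM, with a log2 fold change of -0.62 (SE 0.053, edgeR adjusted p = 1.4e-07; p = 0.029 in an exact two-sided permutation test). Irgm1 lies on chromosome 11 of GRCm38 from 48861968 to 48871683 on the minus strand.

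Gbp2, a guanylate-binding protein, had 31.3, 42.1, 32.6 and 35.2 CPM in GFP libraries 1 to 4 and 25.2, 28.6, 26.7 and 28.3 CPM in OEIRF7 libraries 1 to 4. Its groups were apart as well, at a log2 fold change of -0.37 (SE 0.081, edgeR adjusted p = 0.0011). Gbp3 (0.22, SE 0.10), Igtp (0.18, SE 0.12) and Iigp1 (0.27, SE 0.20) did not pass with all libraries, and each was called higher without GFP 2, with log2 fold changes of 0.34, 0.34 and 0.47 and adjusted p of 0.0036, 0.0044 and 0.04 (edgeR). Gbp3 was also called without OEIRF7 library 4 (0.29, adjusted p = 0.032, edgeR). Gbp7 was at 0.01 (SE 0.091). Outside the members, Gbp5 was higher, from a mean of 1.27 to 2.01 CPM (0.66, adjusted p = 0.0064, edgeR). Gbp9, Tgtp2 and Gm4951 were lower (-0.44, -0.72 and -0.79), and the other genes of these families that were looked at did not pass or were not tested.

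The remaining 8 members, of which 7 were tested, included 2 that were higher and 1 that was lower. These were 28.6% and 14.3%, beside 29.0% and 29.9% of all tested genes. Ifi44, named for its induction by interferon, rose by 0.54 on the log2 scale (mean ± SD of 4 libraries each, 193 ± 15.5 and 280 ± 35.5 CPM), and Rtp4, a receptor chaperone, by 0.58 (47.6 ± 6.03 and 71.0 ± 6.82 CPM). Neither had overlapping groups, and Rtp4 overlaps Masp1 on the other strand. Ifi27, a small interferon-induced protein, had 101, 84.8, 106 and 107 CPM in GFP libraries 1 to 4 and 73.1, 72.1, 72.4 and 80.5 CPM in OEIRF7 libraries 1 to 4. Its groups were apart, with a log2 fold change of -0.42 (SE 0.065, edgeR adjusted p = 5.7e-05), and here GFP 2 was the lowest of its group.

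Stat2, the gene of the interferon-specific STAT, had 194, 229, 192 and 211 CPM in GFP libraries 1 to 4 and 200, 209, 201 and 194 CPM in OEIRF7 libraries 1 to 4. These groups overlapped, at a log2 fold change of -0.04 (SE 0.050, edgeR adjusted p = 0.52). Lgals3bp, a secreted glycoprotein, had 730, 794, 734 and 731 CPM in GFP libraries 1 to 4 and 694, 681, 759 and 696 CPM in OEIRF7 libraries 1 to 4. The call for it (-0.08, SE 0.039, edgeR adjusted p = 0.096) turns on OEIRF7 library 3, without which it was called lower (-0.11, adjusted p = 0.0094, edgeR). Ifi35 (-0.14, SE 0.086) did not pass, nor did Xaf1, an apoptosis factor (0.03, SE 0.062), which was called without GFP 2 (0.11, adjusted p = 0.045, edgeR). Epsti1 stayed at 0.122 to 0.597 CPM.

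**Figure D4:**
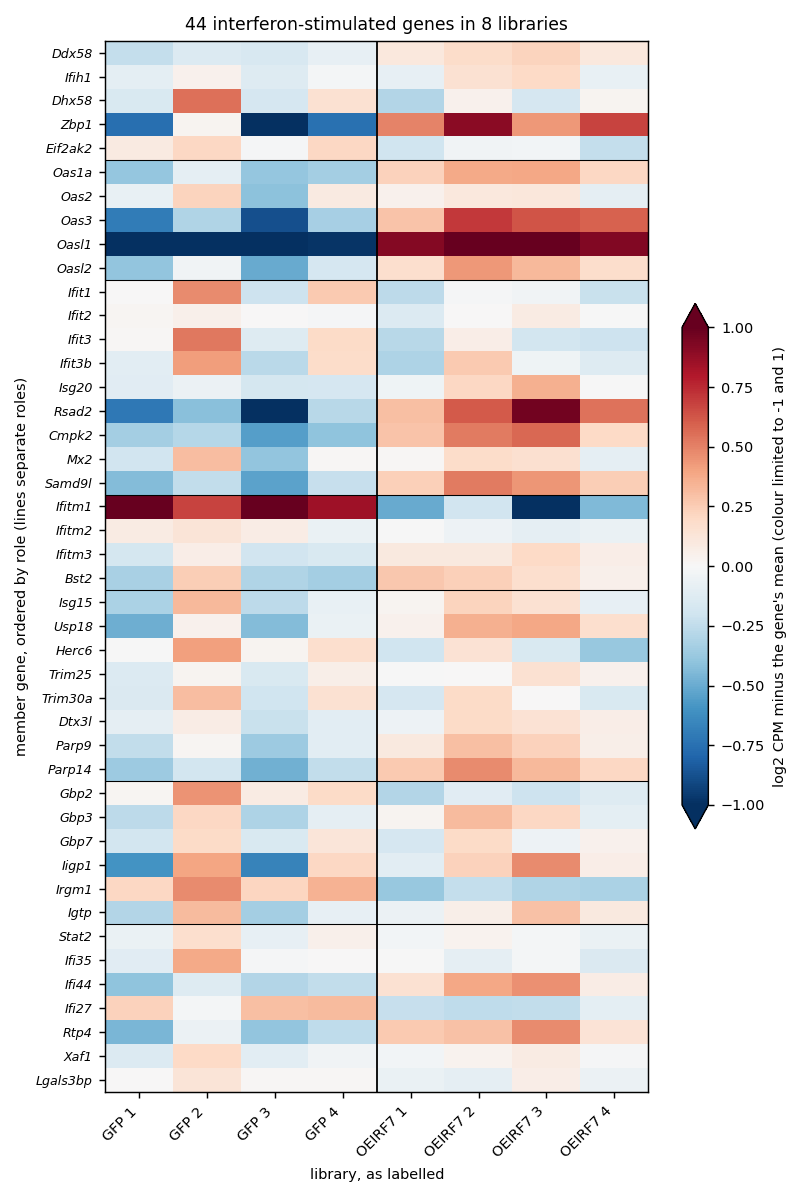
Log2 CPM of the 44 tested members minus each gene's mean over the 8 libraries, in columns by library and in rows by role, with the colour limited to -1 and 1. Beyond the difference between groups, the columns of GFP 2 and of OEIRF7 2 and 3 are redder in most rows than the other columns of their group.

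Within a group the members varied together from library to library. GFP 2 was the highest of its group for 36 of the 44 members (81.8%), while it was the highest for 27.8% of all tested genes. The median member stood 0.20 above its group mean in that library on the log2 scale, and 0.14 and 0.11 below it in libraries 3 and 1, with deviations of -0.14 and -0.11. In the OEIRF7 group libraries 2 and 3 were the highest for 21 and 19 members, with median deviations of 0.10 and 0.07, while libraries 1 and 4 had -0.10 and -0.08. The median deviation of all tested genes was 0.00 in each library. Mouse Irf7 followed the same order in the GFP group, with its highest value of 147 CPM in library 2 and its lowest of 92.0 CPM in library 3. In the OEIRF7 group it did not follow the members, with its lowest value of 14.5 CPM in library 2 and its highest of 16.4 CPM in library 4.

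The spread of the members within a group was wider than that of other genes. The median SD of log2 CPM over 4 libraries was 0.18 for members and 0.089 for all tested genes in the GFP group, and 0.13 and 0.093 in the OEIRF7 group. Without GFP 2, all 18 members called higher and 5 of the 9 called lower kept their calls, and 5 more were called higher (Isg15, Gbp3, Iigp1, Igtp and Xaf1). The 4 lower calls that were lost were Ifit1, Ifit3, Ifitm2 and Herc6. Over all genes that omission changed the counts less, to 3871 higher and 3895 lower of 13670 tested. The source of this difference between libraries was not tested.

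**Figure D5:**
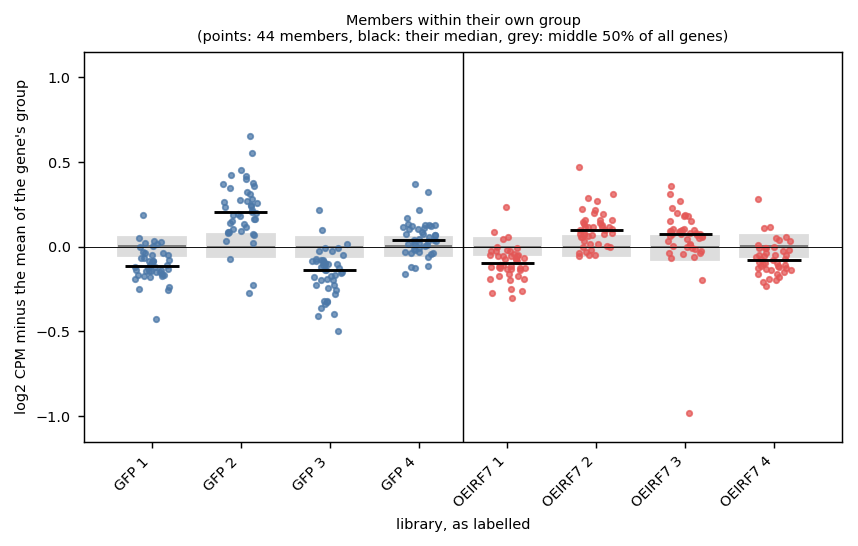
Deviation of each tested member from the mean of its own group (log2 CPM, vertical axis) in each library, with the median of the 44 members as a black line and the middle 50% of all tested genes as a grey box. In GFP 2 the median member stands at 0.20, and in GFP 3 at -0.14, while the boxes of all genes are centred at 0.

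The other genes of the pathway were counted from lists. Of 21 interferon genes, 17, among them Ifnb1 and every numbered Ifna gene listed, had no count in any library, which allows up to 3 counts or 0.12 CPM in the smallest library (counting error only). The 1 that was tested, Ifnz, had 0.376 CPM in the GFP and 0.357 CPM in the OEIRF7 libraries (adjusted p = 0.85, edgeR). Of 19 receptors, kinases, STATs and brakes of interferon signalling, 8 were higher and 2 lower (42.1% and 10.5%, beside 29.0% and 29.9% of all tested genes), with a median log2 fold change of 0.08. With 1 library left out, 6 to 7 of them were higher and 2 lower (edgeR). Socs3, a feedback inhibitor of JAK kinases, rose from a mean of 9.40 to 19.3 CPM (log2 fold change 1.03). Ifngr2, a chain of the interferon-γ receptor, rose by 0.62 and Jak2 by 0.39, while Stat3 fell by 0.18. Irf9, the DNA-binding part of the STAT complex, did not pass (-0.04, SE 0.044).

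Of 17 adaptors and kinases between the sensors and IRF3 or IRF7, 5 were higher and 4 lower (29.4% and 23.5%, beside 29.0% and 29.9% of all tested genes), with a median of 0.04. Tbkbp1, an adaptor of the kinase TBK1, rose from a mean of 4.35 to 8.80 CPM (log2 fold change 1.01), and Sting1, the adaptor of DNA sensing, rose by 0.36. Irf3 fell by 0.42 and Ikbke, the gene of IKKε, by 0.45, whereas Mavs, the adaptor of RIG-I and MDA5, and Tbk1 were both at -0.03 and did not pass. Of 72 further interferon-stimulated genes tested, 23 were higher and 16 lower (31.9% and 22.2%, again beside 29.0% and 29.9%), with a median of 0.07. Past 2-fold in this list were Serpina3g, a protease inhibitor (3.60 on the log2 scale, from 0.591 to 7.23 CPM), Ifi207, of the family of DNA-binding HIN proteins (1.25), and Slfn2, of the Schlafen family (1.22). The largest fall among the 72 was that of Samhd1, the enzyme that depletes the nucleotides viruses copy their DNA with, which fell by 0.87 from 99.2 to 54.1 CPM.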

How the data were processed

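RNA-seq of primary murine cardiac fibroblasts with TGF-β was analysed, with 4 libraries labelled GFP and 4 labelled OEIRF7. The authors trimmed the reads, mapped them to GRCm38 with HISAT2 and deposited raw counts per gene from HTSeq-count, together with FPKM from Cufflinks. Tool versions and the strand setting are not given in the sources used here. The log2 fold change, p-value and FDR columns and the group means, which belong to the authors' own comparison, were not used. In 121 symbols the letters GFP stood in place of nc and were restored by identifier.

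Counts were tested in R 4.3.3 with edgeR 4.0.16 (filterByExpr by group, TMM, glmQLFit and glmQLFTest, no covariate), with Benjamini-Hochberg adjustment over 13533 genes. A prior count of 2 was added for log2 CPM. Depth was 24454801 to 28658826 counts, so 1 CPM is about 24.5 reads in the smallest library, and lower values are imprecise. Replicates differed beyond sampling noise (chi-square per degree of freedom 2.69 to 8.67). Positions came from GENCODE M21, and promoters from RefSeq. The script was tested on simulated data.

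The members and lists were chosen with earlier results of these data known, and 79 of 83 names of further interferon-stimulated genes and 17 of 19 of adaptors and kinases were in the table. Members past 2-fold with at least 1 CPM, those against the members' median at an adjusted p under 0.05 and the 3 of highest FPKM were given in every library, as were Ifitm1, Isg15 and Stat2, chosen after their values were seen. From lists, up to 5 genes past 2-fold were named, and others (Stat3, Ifngr2, Jak2, Irf9, Sting1, Irf3, Ikbke, Mavs, Tbk1, Samhd1) were chosen after their values were seen. Of 10 endothelial markers 4 were higher and 1 lower (40.0% and 10.0%, beside 29.0% and 29.9% of all tested genes). Of 12 fibroblast markers 2 were higher and 7 lower (16.7% and 58.3%), and of 2 cardiomyocyte markers tested 0 were higher and 1 lower. No lymphocyte marker was tested. Alternatives were no scaling, upper-quartile scaling, minima of 1 count in total and of 10 in every library, DESeq2 1.42.0, the replicate number as a block, limma 3.58.1 on log2(FPKM + 1) and log2(FPKM + 0.1) above a mean of 0.1 FPKM, each library left out, and a wider ISRE spacing. One gene of the lists is not reported here.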

Additional observations from a re-analysis of the deposited data

Results flagged for a closer look

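In 6 of 90 groups of 4 libraries (44 members and Irf7, both groups) the highest or lowest library stood apart by a gap past Dixon's critical value on log2 CPM, where chance gives about 1 in 20 groups. GFP 2 was the highest of its group for 4 of them. It had 38.1 CPM for Oas1a (others 31.1 to 32.1), 368 CPM for Ifitm3 (others 307 to 315), 175 CPM for Bst2 (others 117 to 120) and 794 CPM for Lgals3bp (others 730 to 734). OEIRF7 3 was the lowest of its group for Ifitm1, with 0.0393 CPM from 1 count (others 0.194 to 0.241). OEIRF7 4 was the highest for Ifi27, with 80.5 CPM (others 72.1 to 73.1). The cause was not tested.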

How the results depend on the processing

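Under 16 alternatives, 19 of the 27 called members (15 higher, 4 lower) kept their call in each, and none reversed past the threshold. Of 703 member values under these settings, 653 kept their side of the threshold, 38 lost and 12 gained a call. The count of lower members moved from 9 to 5 under limma on log2(FPKM + 1) and to 5 on log2(FPKM + 0.1), and lay between 5 and 9 with 1 library left out, lowest without GFP 2 or OEIRF7 4. The count of higher members lay between 16 and 23 in those fits. Members higher past 2-fold went from 4 to 2 under limma on log2(FPKM + 1), whose pseudocount shrinks low genes, and lower ones from 1 to 0, both there and with a minimum of 10 counts in every library, which removes Ifitm1. With an ISRE spacing of 3 bases, 7 members had a match instead of 20. The median of the members lay between 0.08 and 0.24 with 1 library left out, and Irf7 between -3.06 and -2.84.

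Libraries of the same number correlated in their deviations at 0.079 to 0.138, not all above 0.1, so the numbers were not taken as pairs, though each library correlated best with its own number, a hint from the data and not the design. With the replicate number as a block, 19 members were higher and 10 lower (the median 0.14, Irf7 at -2.95). The block added calls for Gbp3 (0.22, adjusted p = 0.0086, edgeR) and Dhx58 (-0.20, adjusted p = 0.05 after rounding).

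Changes of under 0.1 on the log2 scale, and genes below 1 CPM such as Ifitm1, Mx1 and Epsti1, are at the limit of this depth and of 4 libraries per group.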

Other observations

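Members that are neighbours in the genome did not always move alike. Of the 13 pairs of members next to each other within 100 kb, Oas2 and Oas3, with 3244 bases between them, had log2 fold changes of 0.07 and 1.10, and Oasl2 and Oasl1, with 11005 bases between them, 0.55 and 2.22. Rsad2 and Cmpk2, 12751 bases apart, had 1.20 and 0.79. Gbp3 and Gbp2, 47392 bases apart, had 0.22 and -0.37, and Ifitm1 and Ifitm3, 39760 bases apart, had -1.67 and 0.23. The 4 Ifit genes had -0.03, -0.32, -0.12 and -0.28 in their order along chromosome 19. The differences between neighbours were not tested.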
